A study of Mus musculus with 30 samples.

Results

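Mucin-type glycosyltransferases and sulfotransferases were taken as the genes whose symbols begin with Galnt, B3gnt, B4galt, B3galt, St3gal, St6gal, Gcnt, Fut, C1galt or Chst. The rule found 80 of the 25942 named genes: 18 Galnt, 13 Chst, 9 B3gnt, 8 St6gal, 7 B4galt, 7 Fut, 6 St3gal, 5 B3galt, 5 Gcnt and 2 C1galt genes. Because it works by name, it also takes in enzymes of N-glycans, glycolipids and glycosaminoglycans (B4galt6, St3gal5, Fut8, Chst3, Chst11), the antisense RNA Galnt6os, whose reads may not be separable from those of Galnt6, and a second row named St6galnac2.1. Inside it, 30 of 32 listed enzymes of mucin O-glycan synthesis were present; St6galnac1 and Chst5 were not analysed here.

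Mucin O-glycans are built stepwise in the Golgi. Galnt enzymes attach the first N-acetylgalactosamine to serine or threonine, C1galt1 with its chaperone C1galt1c1 adds galactose to make core 1, and Gcnt1, Gcnt3 and Gcnt4 branch that core, while B3gnt6 makes core 3 instead. B3gnt, B4galt and B3galt enzymes lengthen the chains, and St3gal and St6gal sialyltransferases, Fut fucosyltransferases and Chst sulfotransferases cap them. In the stomach, surface pit cells secrete Muc5ac, and mucous neck cells and deep antral gland cells secrete Muc6, which A4gnt caps with a terminal N-acetylglucosamine.

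The study sorted cells from the antrum and corpus of the mouse stomach by reporter fluorescence and sequenced RNA from each sort, with 3 libraries in each of 10 groups. Lgr5-DTR-GFP mice, whose reporter marks cells expressing the stem cell receptor gene Lgr5, gave antral Lgr5-positive and Lgr5-negative cells and corpus Lgr5-negative, EpCAM-low Lgr5-positive and EpCAM-high Lgr5-positive cells. Sox2-Tomato mice, whose reporter marks cells expressing the transcription factor gene Sox2, gave antral cells sorted as Sox2-high, Sox2-low or Sox2-negative and corpus Sox2-positive and Sox2-negative cells. All samples carry the genotype label WT, no age, sex or treatment is given, and the submitters' own sample descriptions call the corpus Sox2-positive sort low. The labels do not name the animals behind a library, but the 3 libraries of a group were sorted on different days. The p-values rest on how far these sorts vary, part of which may be technical.

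Depth was 31985198 to 62344916 reads in the EpCAM-low libraries and 18672634 to 34437305 reads in the other 27. The smallest sorts were antral Sox2-high, with 1630 to 3268 cells, and corpus EpCAM-high, with 2580 to 5230 cells. Lgr5 RNA followed the Lgr5 sorts, with normalized counts of 5727, 4186 and 2767 in the antral positive libraries against 66.3, 196 and 321 in the negative ones. Sox2 RNA was 1355, 3628 and 2849 in antral Sox2-high cells and 374, 662 and 709 in Sox2-low cells, and the Sox2-low range overlapped the 36.6, 442 and 304 of Sox2-negative cells. A normalized count is the authors' read count divided by 1 factor per library, and values printed in a row are libraries 1, 2 and 3. In these bulk sorts, fewer cells of a type and less RNA per cell cannot be told apart.

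All 80 members had reads in at least 1 library. In 1 or more of the 8 comparisons 73 were abundant enough to be tested, with at least 10 normalized counts in at least 3 libraries of the fit. The other 7 (B3galt2, B3gnt4, B3gnt5, Chst7, Galnt15, Galnt16 and St6galnac3) never passed, and none exceeded 40 reads in a library. Of the 73, 56 passed the test (limma on log2 of the normalized count + 1, Benjamini-Hochberg adjusted p under 0.05) in at least 1 comparison.

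Relative to exon length, the leading member of most families was the same gene in every sort. Gcnt3, the mucin enzyme that makes both core 2 and core 4 branches, led the Gcnt genes in all 10 groups at 309 to 5221 normalized counts per kb. B3gnt3, which extends core 1, led its family in all 10 groups at 846 to 2965 per kb, as did C1galt1c1 at 915 to 2061 per kb and Fut2, the secretory-type α1,2-fucosyltransferase, at 344 to 863 per kb. Galnt12 led the Galnt genes in 8 groups. Chst4, a GlcNAc-6-O-sulfotransferase of mucins, led the Chst genes in 7 groups, and its group means spanned 130 to 3537 per kb in those groups.

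**Figure D1:**
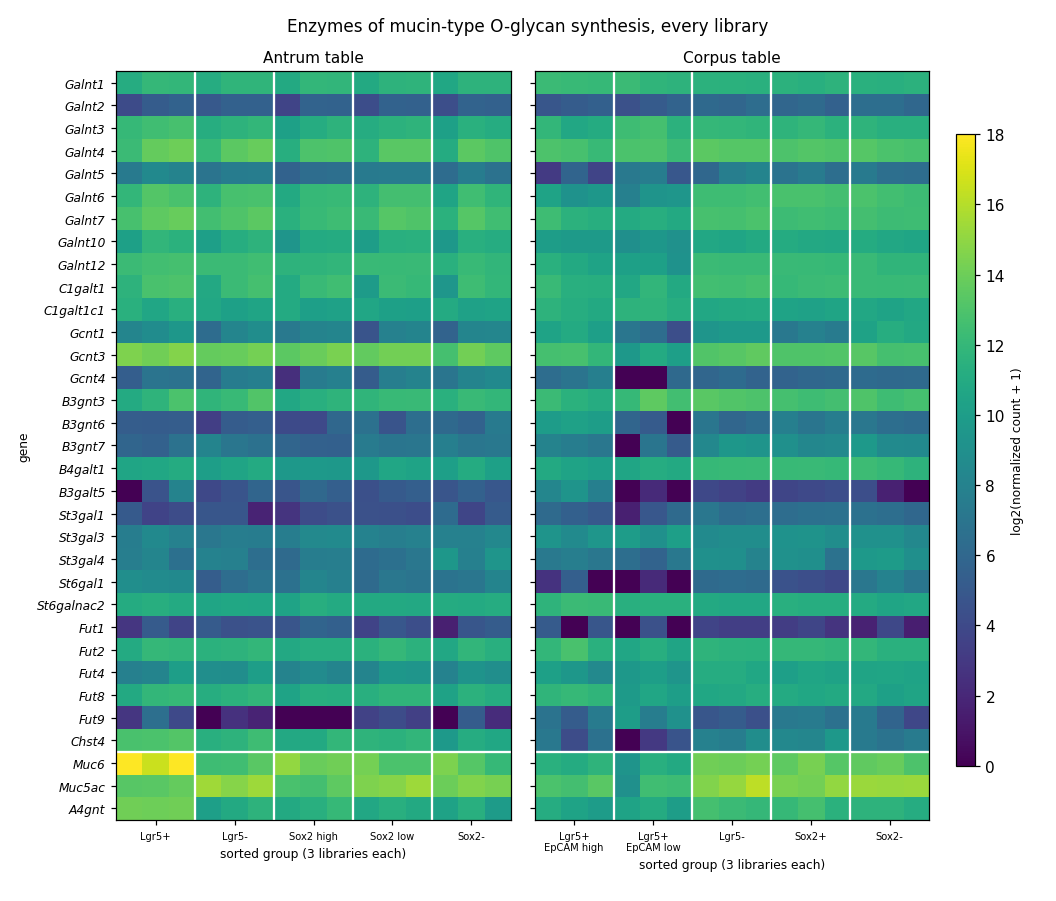
Heat map of log2(normalized count + 1) for the 30 enzymes of mucin O-glycan synthesis with Muc6, Muc5ac and A4gnt, with 1 column per library in the 10 sorted groups. Gcnt3, B3gnt3 and C1galt1c1 are high in every column, while Chst4 stays at 0 to 25.0 normalized counts and St6gal1 at 1 read in all in the EpCAM-low columns; antrum and corpus were scaled separately.

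The groups in which members peaked were set beside Muc6 and Muc5ac. In the antrum, Muc6 and A4gnt had their highest mean in Lgr5-positive cells and Muc5ac in Lgr5-negative cells. Of 71 antral members, 23 (32.4%) peaked in Lgr5-positive cells with Muc6, beside 23.5% of all genes tested, and 6 (8.45%) peaked in Lgr5-negative cells with Muc5ac, beside 16.6%. In the corpus, Muc6, Muc5ac and A4gnt all had their highest mean in Lgr5-negative cells and their lowest in EpCAM-low cells. Of 69 corpus members, 39 (56.5%) were lowest in EpCAM-low cells, beside 35.9% of all genes, and 15 (21.7%) were highest in Lgr5-negative cells, beside 11.8%.

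Antral Lgr5-positive cells had mean Muc6 far above that of Lgr5-negative cells. The Muc6 libraries read 253568, 95524 and 262120 in Lgr5-positive and 5319, 5654 and 10845 in Lgr5-negative cells (log2 fold change 4.75 ± 0.50 (SE), limma adjusted p = 0.0718). A4gnt read 17266, 16646 and 17334 against 1143, 1946 and 3129 (log2 fold change 3.16 ± 0.39 (SE), limma adjusted p = 0.0784). The groups did not overlap for either gene, and Muc5ac lay the other way, at 10121, 10531 and 13815 against 45118, 26768 and 41649 (log2 fold change -1.70 ± 0.32 (SE), limma adjusted p = 0.145).

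None of the 63 members tested passed in this antral comparison, where 0% of all 14047 genes passed. By limma, 3 members had an unadjusted p under 0.05; edgeR called 0 members and DESeq2 called 1. With the sort number as a block, 3 members rose (Chst4, Galnt3 and St6gal1) and none fell, beside 3.18% of all genes called. The members' median log2 fold change was 0.13, beside -0.04 over all genes.

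Chst4 read 7274, 7833 and 9107 in Lgr5-positive and 2663, 3117 and 5474 in Lgr5-negative cells (log2 fold change 1.17 ± 0.34 (SE), limma adjusted p = 0.407, 0.0294 with the block). Galnt3, which starts O-glycans, read 4319, 5599 and 7065 against 2390.1, 3191 and 3945 (log2 fold change 0.83 ± 0.32 (SE), limma adjusted p = 0.629, 0.0402 with the block). St6gal1, which adds α2,6-sialic acid mainly to N-glycans, read 483, 401 and 370.4 against 37.8, 86.8 and 118 (log2 fold change 2.49 ± 0.47 (SE), limma adjusted p = 0.145, 0.0257 with the block). For all 3 genes every positive library lay above every negative one; 14.6% of all genes had groups that did not overlap. Gcnt3 was high in both sorts, at 23832, 17816 and 25715 against 13559, 14606 and 19486, and its groups overlapped.

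The chief cell marker sum moved with these values, at 2184470 to 7184180 in Lgr5-positive and 177482 to 349974 in Lgr5-negative libraries, as did the parietal sum at 34648 to 84635 against 2388 to 6315. All 5 mucous neck or deep gland markers lay above 0, with a median log2 fold change of 3.29. Other cell types lay the other way: 11 of 12 enteroendocrine markers were below 0, with a median of -1.27, and 6 fell with the block, and all 7 pit cell markers, the surface cells that make Muc5ac, were below 0, with a median of -0.96, and 1 fell with the block. Their summed levels overlapped, at 185041 to 1526180 in Lgr5-positive against 270495 to 668370 in Lgr5-negative libraries for enteroendocrine markers and 108995 to 602734 against 298687 to 1339570 for pit cells. None of these marker genes passed without the block. The part of these cells in the members' values was not tested. Of 28 sugar donor and sulfate supply genes tested, 0 passed, and 2 rose with the block.

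**Figure D2:**
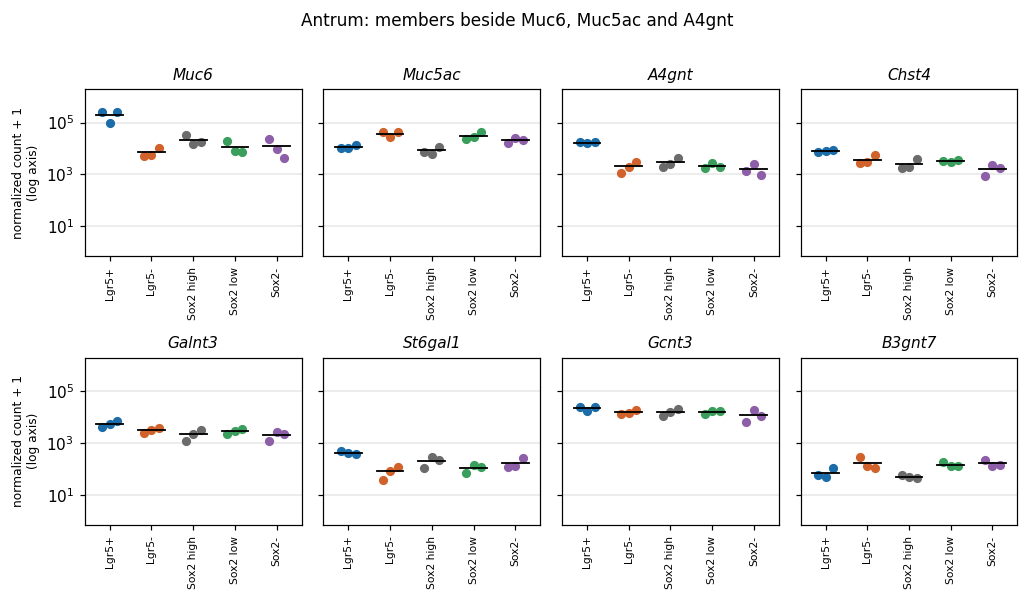
Normalized count + 1 (log axis) of Muc6, Muc5ac, A4gnt and 5 members in the 5 antral sorts, 1 dot per library and a bar at the mean of 3. Muc6 and A4gnt stand highest in Lgr5-positive libraries, with St6gal1 at 370 to 483 there and 37.8 to 118 in Lgr5-negative ones, and B3gnt7 at 45.1 to 56.9 in Sox2-high against 125 to 181 in Sox2-low libraries.

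Antral Sox2-high cells differed from Sox2-low cells in 10 of 70 members tested, 7 higher and 3 lower; 7.9% of all 15064 genes passed (6.14% higher, 1.76% lower), a share of the same order. With the sort number as a block 25 passed (13 higher, 12 lower), beside 30.4% of all genes. The 3 antral Sox2 comparisons share their libraries in pairs. Muc5ac fell, from 23847, 27236 and 41669.8 in Sox2-low to 7304, 6222 and 11692 in Sox2-high cells (log2 fold change -1.89 ± 0.34 (SE), limma adjusted p = 0.0129), and Muc6 did not pass at a log2 fold change of 0.99 (limma adjusted p = 0.4, or 0.0269 with the block).

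The 7 members that rose each belonged to a different family. St6galnac6, a sialyltransferase acting mainly on glycolipids, read 333, 805 and 470.3 in Sox2-high and 11.6, 80.9 and 50.7 in Sox2-low cells (log2 fold change 3.74 ± 0.71 (SE), limma adjusted p = 0.0159). Chst11, which sulfates chondroitin, read 143, 138 and 178 against 4.82, 12.1 and 19.1 (log2 fold change 3.73 ± 0.68 (SE), limma adjusted p = 0.0139). B4galt2, a chain-extending galactosyltransferase, read 356, 525 and 353 against 62.7, 113 and 81.7 (log2 fold change 2.27 ± 0.42 (SE), limma adjusted p = 0.014). For each of these genes every Sox2-high library exceeded every Sox2-low library; groups did not overlap for 30.6% of all genes. B3galt1, a β1,3-galactosyltransferase, was near the detection limit in Sox2-low cells, at 36.1, 84.6 and 77.8 against 2.89, 8.09 and 0 (log2 fold change 4.26 ± 1.11 (SE), limma adjusted p = 0.0484). Galnt13, B3gnt9 and St3gal6 also rose, by log2 fold changes of 1.82, 1.77 and 1.05.

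The 3 members that fell were Galnt14, St6gal2 and B3gnt7. B3gnt7, which extends keratan sulfate and related chains, read 56.9, 47.8 and 45.1 in Sox2-high and 181, 125 and 135 in Sox2-low cells (log2 fold change -1.53 ± 0.35 (SE), limma adjusted p = 0.0302). St6gal2, an α2,6-sialyltransferase, read 9.85, 14.3 and 29.0 against 89.7, 69.5 and 90.6 (log2 fold change -2.29 ± 0.50 (SE), limma adjusted p = 0.0264). Galnt14 had reads in 1 Sox2-high library, at 0, 0 and 6.17 against 29.9, 41.8 and 14.3 (log2 fold change -3.82 ± 0.87 (SE), limma adjusted p = 0.0308). The groups did not overlap for any of the 3. Fut9, an α1,3-fucosyltransferase, had 0 reads in all Sox2-high libraries, at least 5.15-fold below Sox2-low by a floor of 3 reads per library, and did not pass.

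St6gal2 and B3gnt7 were also the 2 of 70 members that fell in Sox2-high against Sox2-negative cells, where 2.15% of all genes passed (1.43% higher, 0.724% lower); with the block 2 members rose and 5 fell, beside 9.71%. Each call was lost without some library, and for 4 of the 6 libraries leaving that library out left no member called. Their Sox2-negative libraries read 95.9, 66.9 and 135 for St6gal2 (log2 fold change -2.50 ± 0.50 (SE), limma adjusted p = 0.0364) and 214, 135 and 144 for B3gnt7 (log2 fold change -1.67 ± 0.35 (SE), limma adjusted p = 0.0432). Sox2-low against Sox2-negative cells gave 0 of 70 members by limma, with 0% of all genes passing. There 9 members had an unadjusted p under 0.05, edgeR called 0 and DESeq2 called 2.

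Enteroendocrine marker sums were 2750830 to 3514670 in Sox2-high and 355214 to 759680 in Sox2-low libraries, without overlap, and 7 of 12 of those markers rose and 2 fell; Sox2-negative libraries spanned both, at 579696 to 5394320. Pit cell sums moved with the lower Muc5ac, at 106895 to 366600 in Sox2-high against 427514 to 981233 in Sox2-low libraries, where all 7 markers were below 0 and 2 fell. Sums of general epithelial markers were 114799 to 131874 against 199324 to 218078, and 1 of 5 fell. Tuft cell sums were 153 to 3563 in Sox2-high against 10169 to 23893 in Sox2-low libraries, and 5 of 8 markers fell. Fibroblast or muscle sums were 181 to 376 against 9.54 to 15.5, the lowest of the Sox2-high values lying above every Sox2-low value. Endothelial sums were 468 to 812 against 163 to 365, and 1 of the 2 markers tested rose. Immune sums were 1233 to 14788 in Sox2-negative libraries and 182 to 264 in Sox2-high ones. The part of these cells in the 10 calls was not tested. Without 1 library the count of members called ranged from 0 to 10: it stayed at 10 without Sox2-high library 1 and was 0 to 3 without any other, so each of these calls was lost without some library, Muc5ac included.

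In the corpus, both Lgr5-positive sorts had less Muc6 than Lgr5-negative cells. The Muc6 libraries read 17949, 15632 and 19466 in Lgr5-negative, 2805, 2180.1 and 3384 in EpCAM-high and 646, 2679.6 and 1993 in EpCAM-low cells. Muc6 fell in EpCAM-high (log2 fold change -2.68 ± 0.44 (SE), limma adjusted p = 0.00337) and in EpCAM-low cells (log2 fold change -3.54 ± 0.44 (SE), limma adjusted p = 0.000818), each against the same Lgr5-negative libraries. Muc5ac read 24593, 36836 and 77009 in Lgr5-negative, 7610.3, 6162 and 10701 in EpCAM-high and 529, 5703 and 5259 in EpCAM-low cells; it fell in EpCAM-low cells (log2 fold change -4.03 ± 0.81 (SE), limma adjusted p = 0.00588), while EpCAM-high did not pass (log2 fold change -2.37 ± 0.81 (SE), limma adjusted p = 0.0665, 0.0267 with the block). A4gnt fell in both, with log2 fold changes of -1.82 in EpCAM-high and -1.81 in EpCAM-low cells. Between the Lgr5-positive sorts Muc6 did not pass (log2 fold change 0.86 ± 0.44 (SE), limma adjusted p = 0.163), nor did Muc5ac (log2 fold change 1.66 ± 0.81 (SE), limma adjusted p = 0.146).

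In EpCAM-low cells more members fell than rose. Against Lgr5-negative cells 35 of 67 members passed, 6 higher and 29 lower, where 30.9% of all 14847 genes passed (12.9% higher, 18% lower). The members' median log2 fold change was -1.36, or -1.31 with genes at 0 set to their bound, beside -0.19 over all genes. Scaling by library totals, which moves the median of all genes by -1.98, gave 60 members of 66, 1 higher and 59 lower, with 12001 of 14401 genes lower. With the block 40 members passed, beside 34% of all genes. Leaving out any 1 of the 3 Lgr5-negative libraries reduced the count from 35 to 19 or 20. Of the 35 calls 17 held without any 1 library and 16 were lost without some library, among them C1galt1c1, St3gal3, St3gal5, St6galnac2, B3galt5, B4galt4, B3gnt7, Fut4 and Fut8. The other 2, Galnt13 and Galnt6os, were not tested without an Lgr5-negative library. The 3 fits they passed therefore do not show that these calls hold. By its floor Galnt6os was at least 1.62-fold lower in EpCAM-low cells.

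EpCAM-high cells differed from Lgr5-negative cells in both directions. Of 67 members 11 rose and 15 fell, 26 in all, where 21.1% of all genes passed (10.7% higher, 10.5% lower), and the median was -0.20 beside -0.06. The count fell to 11 or 12 without any 1 Lgr5-negative library, and to 16 and 17 without EpCAM-high libraries 2 and 3. Of the 26 calls 10 held without any 1 library (Galnt6, B3galt5, B3gnt8, B4galt1, B4galt4, B4galt5, Chst8, Chst15, St3gal2 and St6galnac2), as did those of Muc6 and A4gnt. Galnt13 and Galnt6os were not tested without an Lgr5-negative library, for lack of 3 libraries over the filter, and passed in the other 3 fits. The other 14 were lost without some library, Galnt12, Galnt7, Galnt10, Galnt5, Galnt1, B3gnt3, Fut4, Fut8 and Chst1 among them. Against EpCAM-low cells 24 members rose and 3 fell in EpCAM-high cells, 27 of 67, where 31.8% of all genes passed (17.5% higher, 14.3% lower). The median there was 0.88, or 0.86 with bounds, beside 0.07, and library total scaling gave 52 of 66 higher and 0 lower, with 11230 of 14401 genes higher. Of these 27 calls 16 held without any 1 library and 11 did not (Chst3, Chst4, Chst14, Fut2, Fut9, Galnt10, Galnt12, Gcnt4, B3gntl1, St3gal5 and St6galnac2). The 3 corpus comparisons share groups in pairs, so their values stand side by side and are not independent.

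Among the Galnt genes, 7 of 14 tested fell and 1 rose in EpCAM-high against Lgr5-negative cells. Of all genes 10.5% fell and 10.7% rose there. In EpCAM-low cells 6 fell, where 18% of all genes fell. Both counts of falls include the antisense RNA Galnt6os, whose reads may not be separable from those of Galnt6. Galnt6 read 5472, 5321 and 6046 in Lgr5-negative, 1409, 579 and 728 in EpCAM-high and 231, 648 and 699.6 in EpCAM-low cells. All EpCAM-high and EpCAM-low libraries lay below the Lgr5-negative ones, a separation seen for 48.2% and 49.8% of all genes in either direction, for EpCAM-high (log2 fold change -2.74 ± 0.44 (SE), limma adjusted p = 0.00288) and EpCAM-low (log2 fold change -3.57 ± 0.44 (SE), limma adjusted p = 0.000743). Galnt12 read 4940.4, 4748 and 4589 in Lgr5-negative, 2776, 1928 and 1363 in EpCAM-high and 1198, 1177 and 590.3 in EpCAM-low cells, and fell in EpCAM-high (log2 fold change -1.29 ± 0.31 (SE), limma adjusted p = 0.0179) and in EpCAM-low cells (log2 fold change -2.34 ± 0.31 (SE), limma adjusted p = 0.00111). Its EpCAM-low libraries all lay below the EpCAM-high ones; these 2 sorts did not overlap for 41.4% of all genes. Galnt7 and Galnt10 also fell in both sorts, and Galnt5 in EpCAM-high cells; Galnt13 had 0 reads in the EpCAM-high libraries, at least 12.7-fold below Lgr5-negative. Galnt1, one of the broadly active starters, rose in EpCAM-high cells by a log2 fold change of 0.65 (limma adjusted p = 0.0306).

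Of the core 1 enzymes, C1galt1 read 5868, 5737 and 6632 in Lgr5-negative, 4727, 2637 and 2494 in EpCAM-high and 1737, 3629 and 1930.0 in EpCAM-low cells and fell in the last (log2 fold change -1.40 ± 0.31 (SE), limma adjusted p = 0.00924). Its chaperone C1galt1c1 rose there (log2 fold change 0.62, limma adjusted p = 0.0495), but lay at -1.38 under library total scaling.

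Of the 5 Gcnt branching enzymes, 3 fell in EpCAM-low against Lgr5-negative cells, where 18% of all genes fell. Gcnt3 read 8696, 10246 and 12237 in Lgr5-negative, 6617, 6945 and 3815 in EpCAM-high and 792, 2049 and 1146 in EpCAM-low cells, and fell in the last (log2 fold change -3.06 ± 0.35 (SE), limma adjusted p = 0.000572). Gcnt1, the core 2 branching enzyme, read 673, 797 and 818 in Lgr5-negative, 1416, 2025 and 1148 in EpCAM-high and 136, 84.1 and 18.7 in EpCAM-low cells and also fell (log2 fold change -3.63 ± 0.60 (SE), limma adjusted p = 0.00248). For both genes the EpCAM-low libraries lay below all others. Gcnt2, which branches poly-N-acetyllactosamine into I antigen, fell too, with a log2 fold change of -3.46. Against EpCAM-low cells 4 of 5 Gcnt genes rose in EpCAM-high cells, where 17.5% of all genes rose. The log2 fold changes were 4.60 for Gcnt1, 2.50 for Gcnt2, 2.19 for Gcnt3 and 4.98 for Gcnt4. None of the 5 passed between EpCAM-high and Lgr5-negative cells.

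Core 3 and chain extension enzymes B3galt5, B4galt4 and B3gnt6 had the 3 highest log2 fold changes among members between the Lgr5-positive sorts. B3gnt6, the core 3 synthase, read 986, 1285 and 1046 in EpCAM-high and 58.3, 35.0 and 0 in EpCAM-low cells (log2 fold change 6.42 ± 1.26 (SE), limma adjusted p = 0.00447). Its Lgr5-negative libraries read 136, 60.9 and 79.4, below the EpCAM-high ones, without passing (limma adjusted p = 0.0689, or 0.0467 with the block). B3galt5, which makes type 1 chains, read 299, 643 and 213 in EpCAM-high and 13.8, 10.5 and 7.94 in Lgr5-negative cells (log2 fold change 4.91 ± 0.78 (SE), limma adjusted p = 0.0029). In EpCAM-low cells B3galt5 had 1 read over 3 libraries against 1015 in EpCAM-high ones, a depth-corrected ratio of 432 with a 95% counting interval of 77.4 to 17099.

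B4galt4, a galactosyltransferase that extends sulfated N-acetylglucosamine, read 2027, 2795 and 1709 in EpCAM-high, 164, 153 and 120.2 in Lgr5-negative and 44.7, 42.0 and 6.25 in EpCAM-low cells. EpCAM-high was above Lgr5-negative (log2 fold change 3.87 ± 0.63 (SE), limma adjusted p = 0.0033) and EpCAM-low below it (log2 fold change -2.58 ± 0.63 (SE), limma adjusted p = 0.0138), with no overlap between any of the 3 sorts. B4galt5, best known for lactosylceramide synthesis, rose in EpCAM-high cells at 3061, 4105 and 3651 against 868, 376 and 419.6 (log2 fold change 2.79 ± 0.38 (SE), limma adjusted p = 0.00159). B4galt1, the main galactosyltransferase of N-acetyllactosamine, lay the other way and fell in both sorts, with log2 fold changes of -1.63 in EpCAM-high and -1.28 in EpCAM-low cells. B3gnt3 fell in EpCAM-high cells (log2 fold change -1.50, limma adjusted p = 0.0206).

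Among the sialyltransferases, St3gal2, which adds α2,3-sialic acid to core 1 and to gangliosides, read 1649, 3047 and 1924 in EpCAM-high, 413, 169 and 174 in Lgr5-negative and 73.9, 45.5 and 46.8 in EpCAM-low cells. It rose in EpCAM-high (log2 fold change 3.21 ± 0.41 (SE), limma adjusted p = 0.00116) and fell in EpCAM-low cells (log2 fold change -2.07 ± 0.41 (SE), limma adjusted p = 0.0054), and no library of one sort entered another's range. St6gal2 did the same, with 2431, 2617 and 1776 in EpCAM-high, 443, 401 and 312 in Lgr5-negative and 299, 35.0 and 87.4 in EpCAM-low cells. Its log2 fold changes against Lgr5-negative cells were 2.55 in EpCAM-high and -1.96 in EpCAM-low cells. Unlike the calls of St3gal2, which held, these passed in only 2 and 1 of the 6 fits without 1 library. St3gal5, which makes the ganglioside GM3, lay the other way at 568, 156 and 1561 in EpCAM-high, 511, 393 and 494 in Lgr5-negative and 3357, 1314 and 5116 in EpCAM-low cells; it rose in EpCAM-low against Lgr5-negative cells (log2 fold change 2.61 ± 0.74 (SE), limma adjusted p = 0.0255), and its EpCAM-high and EpCAM-low libraries overlapped. St3gal5, Fut9 and Chst3 were the 3 members that fell in EpCAM-high against EpCAM-low cells, by log2 fold changes of -2.45, -2.39 and -3.10; library total scaling ended those 3 calls. St6gal1 had 1 read over the EpCAM-low libraries against 182 in the Lgr5-negative ones, a ratio of 85.3 with a 95% counting interval of 15.1 to 3386. St6galnac6 had no reads in EpCAM-low cells, at least 14.6-fold below Lgr5-negative and 7.71-fold below EpCAM-high cells.

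Of the fucosyltransferases, Fut2 read 3899, 7355 and 2806 in EpCAM-high and 1641, 2494 and 1474 in EpCAM-low cells, without overlap (log2 fold change 1.25 ± 0.33 (SE), limma adjusted p = 0.018). Fut9, which makes Lewis X, read 1050.2, 196 and 537 in EpCAM-low, 117, 36.7 and 175 in EpCAM-high and 27.5, 36.3 and 20.4 in Lgr5-negative cells. It rose in EpCAM-low against Lgr5-negative cells (log2 fold change 4.09 ± 0.72 (SE), limma adjusted p = 0.00328), against the direction of the 29 members that fell, and was the 1 member still higher there under library total scaling. Fut8, which adds core fucose to N-glycans, rose in EpCAM-high (log2 fold change 0.93) and fell in EpCAM-low cells (log2 fold change -0.76) against Lgr5-negative, and Fut4 fell in both.

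The sulfotransferases split by gene. Chst4 read 238, 194 and 455 in Lgr5-negative, 149, 17.2 and 103 in EpCAM-high and 0, 7.01 and 25.0 in EpCAM-low cells, and fell in the last (log2 fold change -5.55 ± 1.18 (SE), limma adjusted p = 0.00749). Chst8, which sulfates terminal N-acetylgalactosamine, read 411, 708 and 649 in EpCAM-high, 79.5, 41.0 and 70.3 in Lgr5-negative and 75.8, 14.0 and 34.4 in EpCAM-low cells, and rose in EpCAM-high against Lgr5-negative (log2 fold change 3.21 ± 0.59 (SE), limma adjusted p = 0.00577). Chst15, a chondroitin sulfotransferase, rose likewise (log2 fold change 2.56). Chst3, another chondroitin sulfotransferase, rose in EpCAM-low cells at 179, 126 and 349.8 against 22.9, 22.2 and 11.3 (log2 fold change 3.40, limma adjusted p = 0.0287).

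**Figure D3:**
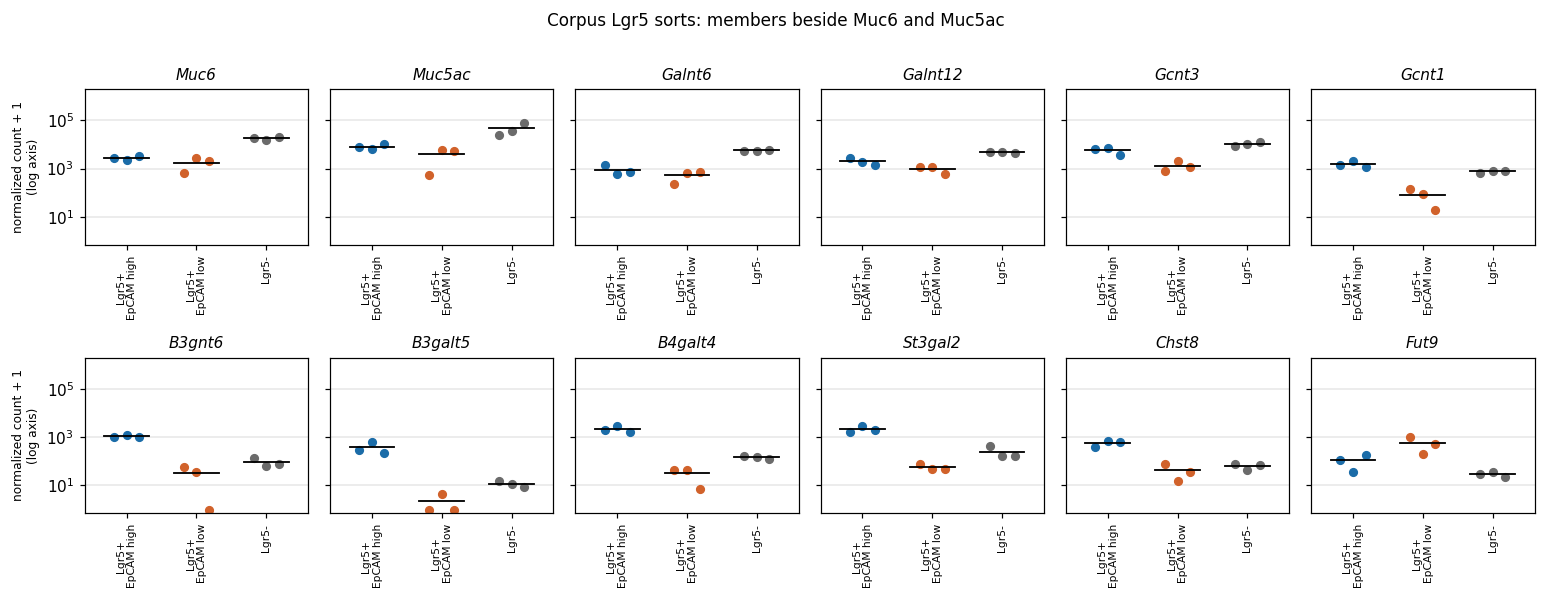
Normalized count + 1 (log axis) of Muc6, Muc5ac and 10 members in the 3 corpus sorts from Lgr5-DTR-GFP mice, 1 dot per library and a bar at the mean of 3. Galnt6 and Galnt12 are highest in Lgr5-negative libraries, B3gnt6, B3galt5, B4galt4, St3gal2 and Chst8 in EpCAM-high ones, and Fut9 in EpCAM-low ones.

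**Figure D4:**
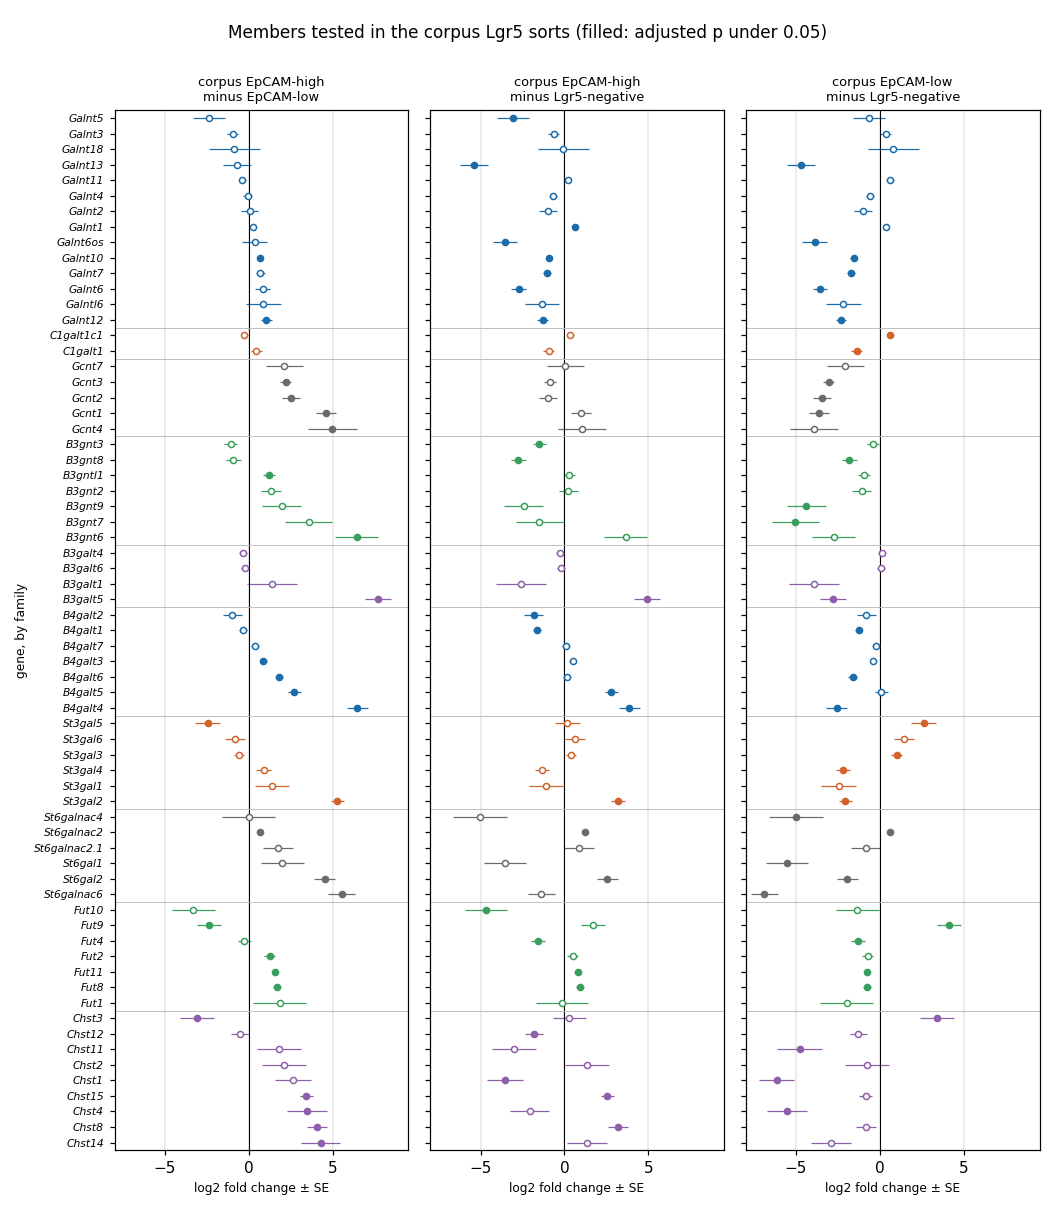
Log2 fold change ± SE of the 67 tested members in the 3 corpus Lgr5 comparisons, grouped by family, with filled points at adjusted p under 0.05. Filled points lie mostly below 0 for EpCAM-low minus Lgr5-negative (6 higher, 29 lower) and mostly above 0 for EpCAM-high minus EpCAM-low (24 higher, 3 lower).

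The cell type markers differed between these sorts as well. Tuft cell sums were 193516 to 335400 in EpCAM-high, 1693 to 12626 in EpCAM-low and 13181 to 25735 in Lgr5-negative libraries, and 8 of 8 tuft markers rose in EpCAM-high against each of the other sorts. Immune sums were 1550 to 4013 in EpCAM-high, 43.7 to 301 in EpCAM-low and 488 to 652 in Lgr5-negative libraries. Most of the EpCAM-high immune sum was the leukocyte gene Ptprc, at 2938, 3735 and 1497. Mouse intestinal tuft cells can also express Ptprc. Chief cell sums were 40782300 to 91654900 in EpCAM-low, 5106310 to 8091210 in EpCAM-high and 7803660 to 10431600 in Lgr5-negative libraries. EpCAM-high libraries held the highest tuft sums and EpCAM-low libraries the highest chief sums, without overlap with the other sorts. Parietal sums were 834045 to 2219650 in EpCAM-low, 48517 to 660390 in EpCAM-high and 60384 to 80833 in Lgr5-negative libraries. Mucous neck or deep gland sums were highest in Lgr5-negative libraries, at 96660.5 to 150308 against 25328 to 37614 in EpCAM-high and 8256 to 20936 in EpCAM-low ones. Against Lgr5-negative cells 7 of 11 enteroendocrine markers fell in EpCAM-high and 9 in EpCAM-low cells, and 4 of 7 pit cell markers fell and 1 rose in EpCAM-low cells.

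Enteroendocrine sums were 244963 to 433716 in Lgr5-negative, 8640.0 to 40090.4 in EpCAM-high and 9329 to 15167 in EpCAM-low libraries, and epithelial sums were 173825 to 196345, 284677 to 379655 and 80109 to 83725. The lists' part in the members' differences was not tested. Each EpCAM-low read stood for 1.94 to 3.50 normalized counts, the coarsest step of the corpus sorts. Of the other pathway genes, 8 of 15 glycan transferases outside the name rule fell and 0 rose in EpCAM-low against Lgr5-negative cells. There 4 rose and 8 fell of 27 sugar donor and sulfate supply genes, beside 12.9% higher and 18% lower of all genes.

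Corpus Sox2-positive cells were compared with Sox2-negative cells of the same mouse line. Of 66 members tested 13 fell and 1 rose, 14 in all, where 9.73% of all 14034 genes passed (1.7% higher, 8.02% lower), and the members' median log2 fold change was -0.04 beside 0.01. With the sort number as a block 20 passed (5 higher, 15 lower), beside 16.4%. Without 1 library the count ranged from 8 (without Sox2-negative library 2 or 3) to 16, and 8 of the 14 calls held without any 1 library. Chst4, Chst2, B3galt1 and B4galt2 lost theirs without some library; Chst10, Galnt9 and Chst2 fell under the filter on low values, and so were not tested, without any 1 Sox2-negative library. Muc6 did not pass (log2 fold change 0.25 ± 0.30 (SE), limma adjusted p = 0.765), nor did Muc5ac (log2 fold change -0.75 ± 0.22 (SE), limma adjusted p = 0.0653) or A4gnt (log2 fold change 0.60 ± 0.29 (SE), limma adjusted p = 0.328, 0.0484 with the block).

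Both branching enzymes Gcnt1 and Gcnt2 fell. Gcnt1 read 148, 237 and 178 in Sox2-positive and 1297, 2432 and 1889.5 in Sox2-negative cells (log2 fold change -3.29 ± 0.25 (SE), limma adjusted p = 0.00014). Gcnt2 read 27.0, 35.8 and 35.4 against 227, 419 and 351 (log2 fold change -3.27 ± 0.29 (SE), limma adjusted p = 0.000258). St6gal1 read 21.7, 19.3 and 13.9 against 139.9, 248 and 136 (log2 fold change -3.15 ± 0.35 (SE), limma adjusted p = 0.000635). For each gene every Sox2-positive library lay below every Sox2-negative one. Groups did not overlap for 24.4% of all genes in this comparison. Gcnt3, the most abundant Gcnt gene per kb, did not pass, with a log2 fold change of 0.15.

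Of the sulfotransferases 4 fell, where 8.02% of all genes fell. Chst1, the keratan sulfate sulfotransferase, read 1.98, 12.8 and 5.39 in Sox2-positive and 159.8, 389 and 179 in Sox2-negative cells (log2 fold change -5.13 ± 0.59 (SE), limma adjusted p = 0.000727). Chst12, which sulfates chondroitin, read 112, 109 and 77.1 against 489, 595 and 501 (log2 fold change -2.41 ± 0.21 (SE), limma adjusted p = 0.000226). Chst10, which makes the HNK-1 epitope, had 1 read in Sox2-positive against 136 in Sox2-negative libraries, a ratio of 142 with a 95% counting interval of 25.0 to 5637. Chst2, another GlcNAc-6-O-sulfotransferase, fell as well (log2 fold change -2.42). Galnt9 had no reads in Sox2-positive cells and 40.5, 48.6 and 84.5 in Sox2-negative cells, at least 24.7-fold higher.

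Chst4 was the member that rose. Its libraries read 344, 305 and 777 in Sox2-positive and 164, 114 and 179 in Sox2-negative cells (log2 fold change 1.53 ± 0.35 (SE), limma adjusted p = 0.0239). The 2 groups did not overlap, as for 24.4% of all genes. The other members that fell were B3galt1, B3gnt8, B4galt2, St6galnac4 and St6galnac6, by log2 fold changes between -1.77 and -4.31. Enteroendocrine sums moved with these falls, at 68401 to 80256 in Sox2-positive and 490109 to 1102030 in Sox2-negative libraries, as did immune sums at 813 to 1034 against 1393 to 12662, while tuft sums lay the other way at 28019 to 53264 against 12144 to 20197. Pit cell sums were 504241 to 625115 in Sox2-positive and 634294 to 908556 in Sox2-negative libraries. Chief cell sums were 2315210 to 5579800 in Sox2-positive and 1726620 to 2297310 in Sox2-negative libraries. The part of these cells in the 14 calls was not tested. Of 14 glycan transferases outside the name rule 6 fell and 0 rose, and of 27 sugar donor and sulfate supply genes 1 rose and 0 fell. Of all genes 1.7% rose and 8.02% fell.

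**Figure D5:**
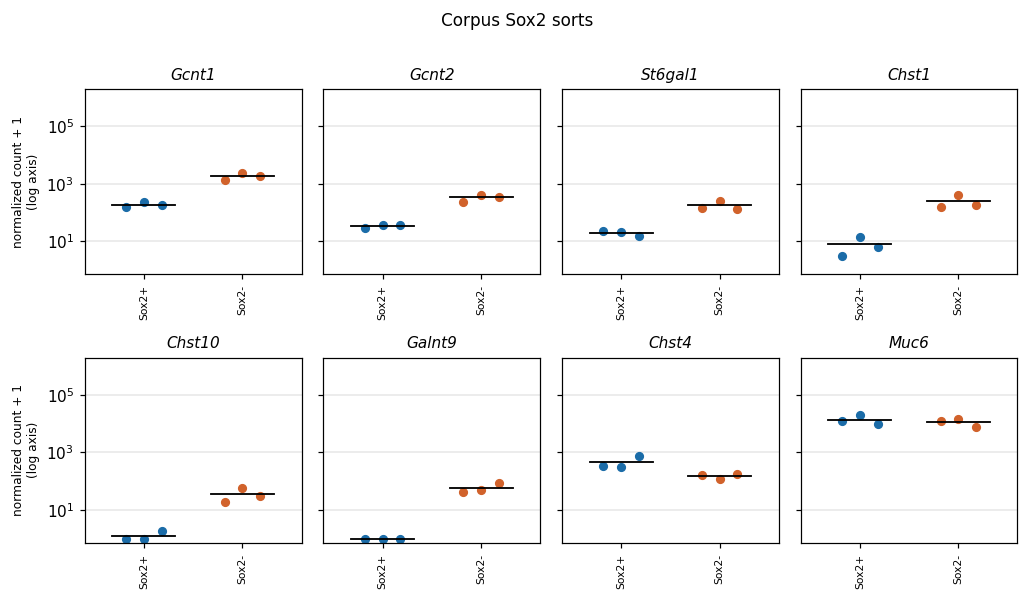
Normalized count + 1 (log axis) of 7 members and Muc6 in corpus Sox2-positive and Sox2-negative sorts, 1 dot per library and a bar at the mean of 3. Gcnt1, Gcnt2, St6gal1, Chst1, Chst10 and Galnt9 are lower in every Sox2-positive library, Chst4 is higher, and Muc6 overlaps.

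Since Sox2 binds DNA, the start-site windows of the 14 members called in that comparison were searched for ACAATG, one spelling of the SOX core motif, on both strands. RefSeq windows of 250 bases before to 50 after each start (GRCm38.p6) held it for 4 of the 14 genes (28.6%: Chst10, Chst4, Gcnt2 and St6gal1). The motif was held for 7 of 61 members with a window (11.5%) and for 14.3% of 27025 genes. Some genes have several windows, and by window the shares were 18.2% of 22, 8.64% of 81 and 12.6% of 32851 in that order. Shown are the window of the member that rose and those of 2 that fell, 5′ to 3′ on the gene's strand, with the motif or its reverse complement in capitals. The windows are chr8:110039285-110039584 (minus strand) for Chst4, with the match starting at -4 from the start site, chr13:40886508-40886807 (plus strand) for Gcnt2, at -2, and chr16:23225771-23226070 (plus strand) for St6gal1, at -71.
Chst4: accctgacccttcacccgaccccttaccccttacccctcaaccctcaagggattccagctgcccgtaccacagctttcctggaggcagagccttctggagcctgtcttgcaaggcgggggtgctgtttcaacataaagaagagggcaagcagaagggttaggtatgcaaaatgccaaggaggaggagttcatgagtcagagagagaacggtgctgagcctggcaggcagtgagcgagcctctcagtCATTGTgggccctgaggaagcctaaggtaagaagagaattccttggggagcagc
Gcnt2: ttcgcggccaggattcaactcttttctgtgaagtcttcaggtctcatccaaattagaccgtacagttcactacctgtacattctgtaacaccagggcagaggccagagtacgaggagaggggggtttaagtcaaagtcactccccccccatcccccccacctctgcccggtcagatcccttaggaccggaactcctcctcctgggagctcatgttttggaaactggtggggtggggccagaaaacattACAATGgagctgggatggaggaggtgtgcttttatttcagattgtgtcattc
St6gal1: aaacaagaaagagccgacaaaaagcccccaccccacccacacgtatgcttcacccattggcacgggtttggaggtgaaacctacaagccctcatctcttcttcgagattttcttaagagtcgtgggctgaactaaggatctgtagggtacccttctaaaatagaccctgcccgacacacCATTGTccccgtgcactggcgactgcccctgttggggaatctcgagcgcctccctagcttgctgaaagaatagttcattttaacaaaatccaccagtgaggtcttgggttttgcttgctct
A match is a description of these letters and does not show that Sox2 binds there.

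Whether the sort effect differed between tissues was tested on the recovered reads of both tables, scaled together. The antral Lgr5 effect differed from the corpus EpCAM-high effect in 8 of 69 members, 6 higher and 2 lower, where 4.04% of all genes passed (1.81% higher, 2.22% lower). It differed from the EpCAM-low effect in 12 of 69 members, all higher in the antrum, where 3.99% passed (3.43% higher, 0.56% lower). With the block these counts were 16 and 23, beside 9.37% and 10.1% of all genes; leaving out 1 library gave 0 to 5 for the first except 9 without antral Lgr5-positive library 1, and for the second 6 and 7 without corpus Lgr5-negative libraries 1 and 3 and 8 to 18 otherwise. Of the named genes Muc6 and A4gnt held in both tests whichever library was left out, while 0 of the 8 members held in the first and 6 of the 12 in the second (Galnt6, Galnt12, Gcnt3, Chst4, St6gal1 and B4galt6). Galnt6 had a more positive effect in the antrum than in either corpus sort, by 2.91 ± 0.72 (limma adjusted p = 0.0383) and 3.86 ± 0.72 (adjusted p = 0.0112) on the log2 scale (± SE). So did St6gal1, by 5.92 ± 1.44 (limma adjusted p = 0.0354) and 7.88 ± 1.44 (adjusted p = 0.00983). Muc6 differed the same way, by 7.35 ± 0.69 (limma adjusted p = 0.000567) and 8.33 ± 0.69 (adjusted p = 8.46e-05). B4galt4 and B4galt5 had more positive effects in corpus EpCAM-high cells. The antral Sox2-low effect differed from the corpus Sox2-positive effect in 1 of 75 members, Galnt9, where 0.0362% of all genes passed. By edgeR 0 members passed. Galnt9 was under the filter in the antral fits and had no reads in corpus Sox2-positive cells, so this call rests on its corpus Sox2-negative reads. Of 12 fits without 1 library, Galnt9 passed in 3, did not pass in 6 and was not tested in 3.

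The authors' deposited tables of fold changes are named for 3 of these comparisons. In the authors' deposited table of antral Sox2-high against Sox2-low cells 4 members passed an adjusted p of 0.05, 3 higher and 1 lower. Of the 831 features it calls, 787 were tested in the limma fit, and 100% of those had the sign of the fit. In the authors' deposited table of antral Lgr5 cells 1 member passed, St6gal1 at a log2 fold change of -2.37 (authors' adjusted p = 0.0383). Of the 152 features it calls, 133 were tested in the limma fit, and 0% of those had the sign of the fit. Muc6 at -4.10 (authors' adjusted p = 0.00849) and A4gnt at -3.04 (authors' adjusted p = 0.000359) also passed in the authors' deposited table. Muc5ac at 1.72 did not (authors' adjusted p = 0.948). In the authors' deposited table of corpus EpCAM sorts 26 members passed, 4 higher and 22 lower as written. Of the 2929 features it calls, 2832 were tested in the limma fits. Of those genes 4.17% had the sign of the EpCAM-high minus EpCAM-low fit. As written, its signs matched the EpCAM-low minus Lgr5-negative fit for 99.96% of those genes and for 64 of 67 members. Muc6 is at -3.54 in the authors' deposited table and at -3.54 in the EpCAM-low minus Lgr5-negative fit, while B3gnt6 is at -0.93 (adjusted p = 0.623) in the authors' deposited table and at 6.42 in the EpCAM-high minus EpCAM-low fit. The values of the corpus table thus lay nearer to EpCAM-low minus Lgr5-negative than to the comparison in its name, with a median absolute difference over all genes of 0.179 beside 1.37, or 0.625 with its sign turned. All directions given here come from the libraries.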

How the data were processed

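RNA from 30 sorted mouse samples was made into libraries with a low-input SMARTer kit, per the labels' protocols. STAR and HTSeq, the packages DESeq2 and edgeR and the build mm9 are named in the submitters' processing notes without roles or versions; use of strand is not given in the sources used here. The authors deposited 2 gene tables (antrum, corpus), scaled separately, whose normalized count is a signal value: gene counts divided by 1 size factor per library. At least 99.99% of values in each library came out as whole reads within 0.01, and 433 unnamed and 25 date-named features of 26400 were left out of all fits. The authors' deposited tables of comparisons hold a log2 fold change with an adjusted p-value per gene, and their sort sheet holds a count of cells per sort.

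Each comparison was fitted with limma 3.58.1 (trend, robust; R 4.3.3) on log2(normalized count + 1), on the groups of 1 reporter line and tissue, for genes with at least 10 normalized counts in at least 3 libraries, with Benjamini-Hochberg adjustment over all genes tested and a threshold of 0.05. Tissue differences used recovered reads with joint TMM scaling. For low genes, fold changes on this scale can fall short of the ratio of group means or exceed it. Gcnt4 was at 4.98 on the log2 scale in EpCAM-high minus EpCAM-low cells, where the ratio of means was 5.90-fold. Alternatives were the sort number as a block, no filter, a pseudocount of 5, TMM or library total scaling, edgeR 4.0.16, DESeq2 1.42.0 (both on recovered reads) and leaving out each library. The sort sheet gives 1 sort day for each of 12 combinations of line, tissue and number, so numbers pair libraries by day. Same-number correlations of deviations were 0.126 to 0.673 in the antrum, 0.221 to 0.366 in corpus Sox2 sorts and -0.0563 to 0.159 in corpus Lgr5 sorts. Replicate libraries differed beyond sampling noise (chi-square per degree of freedom at least 31.2). On counts simulated for the antral Lgr5 comparison, the fit recovered 49% of 4-fold and 97% of 16-fold changes, and for the corpus Sox2 comparison 97% and 99%. The shares were 48% and 94% for antral Sox2-high minus Sox2-low and 80% and 96% for EpCAM-high minus EpCAM-low. For the tissue differences they were 35% and 81% (Lgr5, EpCAM-high) and 40% and 88% (Sox2). The simulated libraries shared no sort-day deviation, unlike the antral ones, so these shares do not give the power in the real libraries.

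Exon lengths for per-kb levels came from the GENCODE vM21 annotation (GRCm38) for 79 of 80 members, on another build than the authors', and promoter windows from RefSeq. Floors are 3 reads per library, averaged over the group; intervals for genes with 1 to 3 reads are exact binomial at 95% and, like floors, cover counting error only. Named with values were the 30 enzymes of mucin O-glycan synthesis where informative, the 6 called members of largest fold change with 1 sign in all sort numbers in each comparison, and Muc6, Muc5ac and A4gnt; other members were named after their values were seen. Members and lists were chosen with earlier results of these data known.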

Additional observations from a re-analysis of the deposited data

Results flagged for a closer look

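The effect of a sort on these genes differed between antrum and corpus in 21 tests (interaction term, limma on log2 of jointly scaled reads, adjusted p under 0.05 over all genes). The antral Lgr5 effect minus the corpus EpCAM-high effect was 5.92 for St6gal1, 4.53 for Galnt13, 4.10 for Galnt6os, 2.91 for Galnt6, 2.60 for B3gnt8 and 1.76 for B4galt1. It was -3.75 for B4galt4 and -2.34 for B4galt5. Galnt13 had 0 reads and Galnt6os 1 read over the EpCAM-high libraries, so their fitted values depend on the pseudocount. Each of these 8 calls was lost without some library.

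The antral Lgr5 effect minus the corpus EpCAM-low effect was 7.88 for St6gal1, 6.66 for Chst4, 5.50 for Chst1, 5.30 for St6galnac6, 4.70 for Gcnt1 and 4.42 for Galnt6os. It was 3.98 for Gcnt2, 3.86 for Galnt6, 3.60 for Gcnt3, 2.54 for Galnt12, 2.18 for B4galt6 and 2.11 for Galnt7. Of these 12 calls 6 were lost without some library. Both differences share the antral libraries and the corpus Lgr5-negative libraries. St6gal1, Chst1, St6galnac6 and Galnt6os had 0 or 1 read over the EpCAM-low libraries, so those fitted values depend on the pseudocount.

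For Sox2, Galnt9 differed by 6.72 between the antral Sox2-low effect and the corpus Sox2-positive effect (adjusted p = 0.0188). It had 0 reads in all corpus Sox2-positive libraries and was under the filter in the antral fits, so the value rests on its corpus Sox2-negative reads.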

How the results depend on the processing

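Across 99 gene results named in the comparisons, the sort-number block kept every call, DESeq2 ended 5, TMM scaling 4 of 76, edgeR 13, no filter 9, a pseudocount of 5 ended 3 and library total scaling 7. Leaving out 1 library ended 49 of the 99 at least once; a few genes seen in 1 group alone were not tested in 3 of those fits. Library total scaling reversed C1galt1c1 (-1.38), St3gal3 (-1.01) and St6galnac2 (-1.43) in corpus EpCAM-low minus Lgr5-negative; the cause was not tested.

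The number of members called moved by over 1.5 times as follows, and the causes were not tested. For antral Lgr5-positive minus Lgr5-negative (0), the replicate block gave 3 and DESeq2 1. For antral Sox2-high minus Sox2-low (10), the block gave 25, no filter 6 and DESeq2 16. For Sox2-high minus Sox2-negative (2), the block gave 7, no filter 1, a pseudocount of 5 gave 5, edgeR 0 and DESeq2 8; for Sox2-low minus Sox2-negative (0), DESeq2 gave 2 and the block 0. Library total scaling gave 52 for EpCAM-high minus EpCAM-low (27) and 60 for EpCAM-low minus Lgr5-negative (35). With the replicate block these read 28 and 40, EpCAM-high minus Lgr5-negative 29 and corpus Sox2 20. For the antral Lgr5 effect minus EpCAM-high (8), the block gave 16 and DESeq2 18; minus EpCAM-low (12), the block gave 23, library total scaling 46 and DESeq2 21; for the Sox2 tissue difference (1), the block gave 2, edgeR 0 and DESeq2 2.

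Leaving out 1 library gave 0 each time for antral Lgr5 and Sox2-low minus Sox2-negative, 0 to 10 for Sox2-high minus Sox2-low, 0 to 2 for Sox2-high minus Sox2-negative, 19 to 26 for EpCAM-high minus EpCAM-low, 11 to 23 for EpCAM-high minus Lgr5-negative, 19 to 33 for EpCAM-low minus Lgr5-negative, 8 to 16 for corpus Sox2, and 0 to 9, 6 to 18 and 0 to 1 for the tissue differences in the order above. A pair of libraries is assumed to vary like the other groups of its fit. At 1.94 to 3.50 normalized counts per read, EpCAM-low levels below 3 reads per library are not resolved.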

Other observations

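Libraries numbered 1 were the lowest of 3 in all 5 antral groups for 15 of 71 members (21.1%), close to the 20.3% of all 15389 genes, and the highest in all 5 for 2 members (2.82%), beside 23.5% of all genes. The 15 comprise Galnt1, Galnt2, Galnt3, Galnt4, Galnt5, Galnt6, Galnt7, Galnt10, C1galt1, Gcnt1, Gcnt4, B3gnt3, B3galt5, Fut2 and Fut8. The 5 groups span both reporter lines, which were sorted on different days.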
